A study of Homo sapiens with 21 samples.

Results

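The genes described are 8 members of the interleukin-1 (IL-1) system: the cytokines IL1A, IL1B, IL18 and IL33, the receptor antagonist IL1RN, the receptor chains IL1R1 and IL1RAP, and the protease CASP1. All probe sets that the platform annotation of the HG-U133 Plus 2.0 array gives to these symbols alone were taken, 20 of the 54675 probe sets on the array. The members were chosen by the IL1B changes with mir-429 at 24 and 144 h, which were known when the genes were proposed, and by their place in the system. They were followed over 21 arrays, 3 in each of 7 groups, of HEY, an established line from a human ovarian carcinoma. The groups were cells before transfection (0 h), cells lipid-transfected with a synthetic miRNA and taken at 24, 48 or 144 h, and cells lipid-transfected with mir-429 and taken at the same times. The arm labelled only as synthetic miRNA was taken to be the negative control miRNA that the study's design names and is called control here. No label of its samples says so beyond the prefix nc, which the mir-429 titles carry too. The 0 h cells are labelled as not transfected, so the control arm differs from them by the lipid reagent, the control miRNA and the time in culture together. Replicates carry the label biological without word of separate cultures, and the p-values therefore cover the spread of these arrays, which may be technical.

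IL-1 alpha and IL-1 beta are secreted alarm cytokines that bind the same receptor, made of IL1R1 and its accessory chain IL1RAP. Binding recruits MYD88 and IRAK kinases and activates NF-kB, which turns on chemokines and IL6. IL-1 beta and IL-18 are made as inactive precursors and cut by caspase-1 inside inflammasomes, whereas IL-1 alpha precursor is already active. IL-33 is a nuclear alarm cytokine that also uses IL1RAP as accessory chain, and IL1RN occupies IL1R1 without signalling. In ovarian cancer the system is known as a source of inflammatory signals made by the tumour cells themselves. The arrays measured mRNA and hold nothing on cleavage or secretion.

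The transfected miRNA is shown because it defines the treated groups. Capitals mark its seed, bases 2 to 8, through which a miRNA pairs with its targets. In the RefSeq table (GRCh38.p14) the mature miRNAs that share this seed are those of the miR-200b, miR-200c and miR-429 genes.
hsa-miR-429: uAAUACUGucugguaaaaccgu
hsa-miR-200b-3p: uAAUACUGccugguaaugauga
hsa-miR-200c-3p: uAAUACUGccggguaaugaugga
The mature miR-429 lies on the plus strand at chr1:1169055-1169076.

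Values are deposited log2 levels, and a change is a difference of log2 group means with its standard error (SE) from a limma fit of all 21 arrays. The 48 h arrays of both arms had far less signal at the 5' end of the GAPDH and ACTB control transcripts. The mean 3' minus 5' difference was 7.227 to 8.729 on the 48 h arrays and 2.536 to 4.427 on all others. Within 48 h it was 7.227 to 8.471 in control and 8.447 to 8.729 in mir-429 arrays. At 24 h the arms lay apart, at 4.004 to 4.427 in control and 2.536 to 3.248 in mir-429 arrays. Untransfected arrays, at 2.793 to 3.757, also lay below the control arrays of 24 h. The part of this difference in the 24 h values of the members with mir-429 was not tested. The array medians ran from 3.949, in mir-429 at 144 h, replicate 1, to 4.293. Of 10 markers listed for the line, KRT7, KRT8, KRT18, PAX8, WT1, VIM and CDH2 lay above the median on all 21 arrays, KRT19 on 2 arrays, and EPCAM and MUC16 on none. Of the 10 leukocyte markers with a probe set, 0 lay above the median on 3 or more arrays, and of 7 fibroblast markers COL1A1 and PDGFRB did. In bulk arrays fewer cells of a kind and less RNA per cell cannot be told apart.

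A gene was tested where its brightest probe set lay above the array median on at least 3 arrays, which held for 12879 genes. IL1A, IL1B, IL18, CASP1 and IL1RAP passed on all 21 arrays. IL1RN passed the median on 1 array and IL1R1 and IL33 on 0, so these were not tested. The contrasts of mir-429 with control at 24 and 144 h, which the choice used, are given as values without a test. Tests are given for mir-429 against control at 48 h and for control against untransfected cells. The control arrays of 24 and 144 h also stood in the known contrasts.

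**Figure D1:**
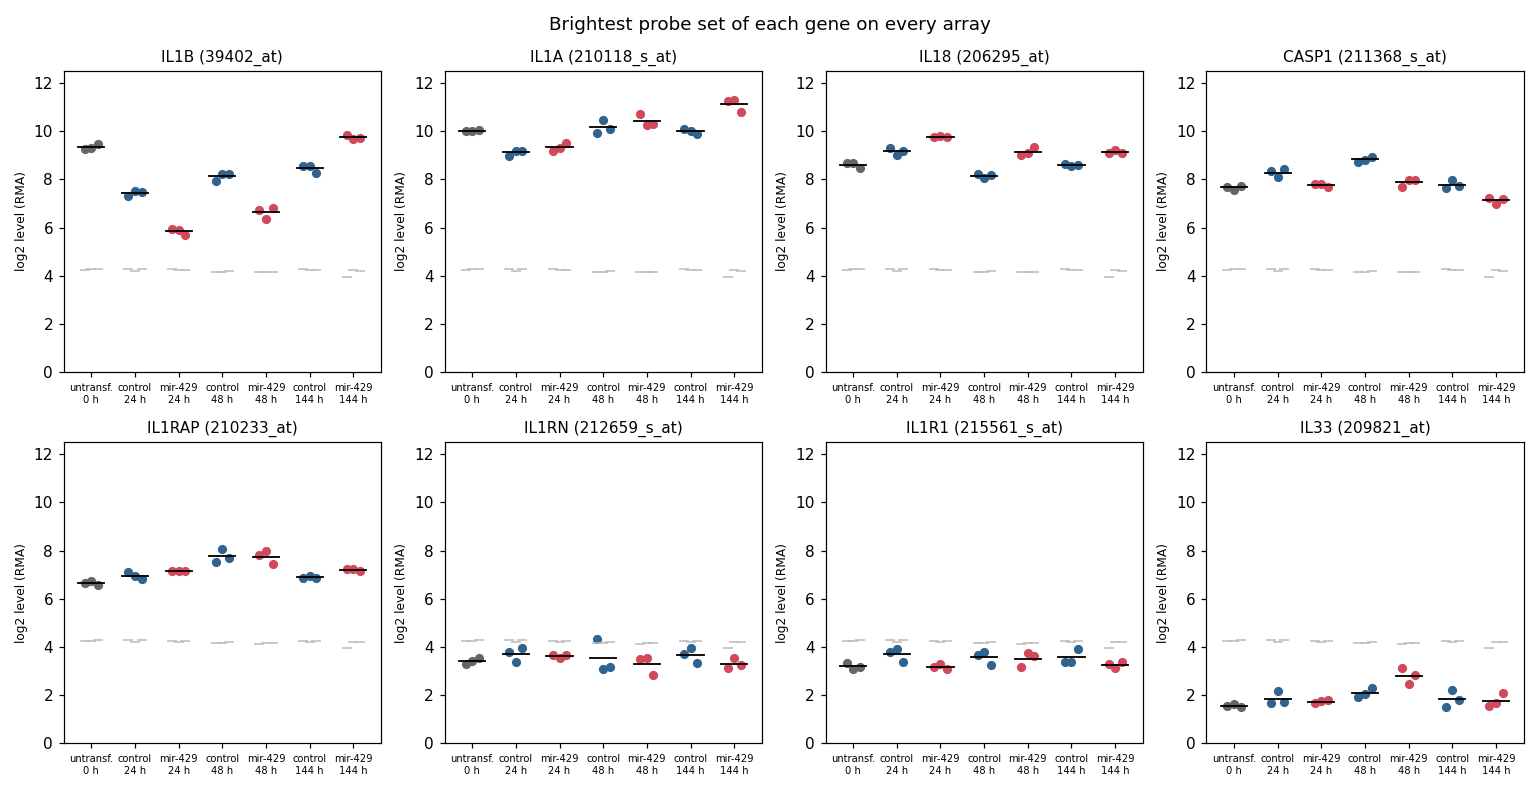
Log2 level (vertical axis) of the brightest probe set of each gene on every array, by group (horizontal axis); points are arrays, black bars group means and grey dashes the median of each array. IL1B spans 5.70 to 9.84, while IL33 stays at or below 3.11 and IL1R1 at or below 3.93 on every array.

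IL1B, the secreted cytokine cut by caspase-1, had the lowest levels in mir-429 cells at 24 h and the highest in mir-429 cells at 144 h. Before transfection it was at 9.27, 9.30 and 9.47. At 24 h the control arrays read 7.29, 7.53 and 7.46 and the mir-429 arrays 5.93, 5.90 and 5.70. At 48 h they read 7.93, 8.22 and 8.24 in control and 6.73, 6.36 and 6.81 with mir-429. In both pairs every mir-429 array lay below every control array. At 144 h the order was turned, with 8.56, 8.56 and 8.25 in control and 9.84, 9.66 and 9.73 with mir-429, again without overlap.

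At 48 h, IL1B was lower with mir-429 by -1.50 ± 0.13 (SE, n = 3 per group), a 2.82-fold difference (limma adjusted p = 1.72e-07). The known differences were -1.59 ± 0.13 at 24 h and 1.28 ± 0.13 at 144 h. The effect at 144 h thus exceeded that at 48 h by 2.78 ± 0.18 and that at 24 h by 2.87 ± 0.18, while the 48 and 24 h effects differed by 0.09 ± 0.18. Both IL1B probe sets gave the same course, with 205067_at at -1.65 ± 0.18, -1.45 ± 0.18 and 1.25 ± 0.18 at the 3 times. Over the 21 arrays the pair correlated at r = 0.992.

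IL1B was also lower in control than in untransfected cells. Against untransfected cells it fell by 1.92 ± 0.13 at 24 h (limma adjusted p = 2.38e-08) and by 1.22 ± 0.13 at 48 h (adjusted p = 6.15e-07), and by 0.89 ± 0.13 at 144 h (adjusted p = 0.00211). The control arrays of 144 h also stood in the known IL1B rise, which low control values favour. The 144 h call is therefore not independent of the choice of members. With the 3' to 5' difference added as a model term the 48 h value was -0.60 ± 0.50 and not called (limma adjusted p = 0.566). All 48 h arrays lay apart from the others in this difference. In comparisons of 48 h with untransfected cells the term can hardly be separated from the group. A call lost there decides nothing. Set against untransfected cells, mir-429 cells were 11.35-fold lower at 24 h, 6.555-fold lower at 48 h and 1.316-fold higher at 144 h. In rising order the group means of IL1B were 5.84 (mir-429, 24 h), 6.63 (mir-429, 48 h), 7.43 (control, 24 h), 8.13 (control, 48 h), 8.46 (control, 144 h), 9.35 (untransfected) and 9.74 (mir-429, 144 h). No neighbours in this order overlapped, but the highest control array at 48 h, 8.24, lay close to the lowest at 144 h, 8.25.

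The summed level of endothelial marker genes, most of it from CDH5, was, like IL1B, lower at 24 h than in untransfected cells and highest with mir-429 at 144 h. Summed on the linear scale, the 6 markers were at 921.7 to 1027 in untransfected cells, 258.9 to 306.4 in control and 221.8 to 259.8 in mir-429 cells at 24 h, and 643.3 to 910.2 in control and 1220 to 1278 in mir-429 cells at 144 h. Between the arms the sums overlapped at 24 h, narrowly, and at 48 h, at 348.4 to 389.2 in control and 350.8 to 367.9 with mir-429. Of the 6, CDH5 alone lay above the median on all 21 arrays, KDR on 19 and CLDN5 on 17, while the defining markers PECAM1, TEK and VWF did so on 3, 2 and 1. At 144 h CDH5 and VWF had higher means with mir-429, at 10.20 beside 9.41 in control and 3.90 beside 3.39. The others had lower means with mir-429: KDR 4.45 beside 4.92, TEK 2.94 beside 3.54, PECAM1 3.46 beside 3.78 and CLDN5 4.51 beside 4.65. The sum thus follows CDH5 and not the list as a whole. Their part in the IL1B values was not tested.

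IL1A, which encodes the alarm cytokine that needs no caspase-1 cut, did not share the early difference of IL1B. Before transfection it was at 9.99, 10.02 and 10.06. At 24 h it read 8.97, 9.18 and 9.19 in control and 9.19, 9.32 and 9.52 with mir-429. At 48 h it read 9.90, 10.47 and 10.08 in control and 10.69, 10.25 and 10.30 with mir-429, so the arms overlapped at both times. At 144 h the mir-429 arrays, at 11.25, 11.30 and 10.80, all lay above the control arrays at 10.09, 10.01 and 9.90.

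The difference of IL1A with mir-429 was 0.23 ± 0.16 at 24 h and 1.12 ± 0.16 at 144 h, and at 48 h it was 0.26 ± 0.16 and not called (limma adjusted p = 0.269). In control cells IL1A fell by 0.91 ± 0.16 at 24 h against untransfected cells (limma adjusted p = 0.00025). It was at 0.13 ± 0.16 at 48 h and -0.02 ± 0.16 at 144 h, neither of them called (adjusted p = 0.507 and 0.966). The lowest group was control at 24 h, 9.11, and the highest mir-429 at 144 h, 11.1. Between them, control at 144 h, untransfected cells, control at 48 h and mir-429 at 48 h lay between 10.0 and 10.4, each overlapping the next. The other IL1A probe set, 208200_at, stayed below the array median on every array (2.20 to 3.61) and had a change of -0.24 ± 0.26 at 144 h.

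Both IL-1 cytokine genes were higher with mir-429 at 144 h, and their start regions are shown for that reason. Each RefSeq window runs from 250 bases before to 50 after an annotated start, in GRCh38.p14 on the minus strand. Capitals mark matches to the AP-1 motif TGANTCA, which reads alike on both strands.
IL1A, chr2:112784351-112784650: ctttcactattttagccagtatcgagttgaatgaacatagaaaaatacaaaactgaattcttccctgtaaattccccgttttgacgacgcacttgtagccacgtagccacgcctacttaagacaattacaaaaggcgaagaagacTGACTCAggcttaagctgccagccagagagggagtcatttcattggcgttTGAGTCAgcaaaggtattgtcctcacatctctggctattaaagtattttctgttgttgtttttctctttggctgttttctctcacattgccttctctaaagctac
IL1B, chr2:112836730-112837029: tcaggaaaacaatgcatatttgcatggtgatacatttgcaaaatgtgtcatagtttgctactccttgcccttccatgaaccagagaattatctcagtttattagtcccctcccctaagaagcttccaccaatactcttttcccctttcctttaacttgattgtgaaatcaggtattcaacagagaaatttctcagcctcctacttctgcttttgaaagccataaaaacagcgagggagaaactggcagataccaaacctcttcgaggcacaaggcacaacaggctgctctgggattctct
The IL1A window holds 2 matches, beginning at -105 and -55 from the start, and the IL1B window holds 0. A second annotated IL1A start gives an overlapping window with the same 2 matches, which begin at -12 and 38 from that start. The motif is held by 7.71% of the 35116 windows listed, and of the 13 windows of the members 3 do, those of IL1A and 1 of IL1RN. The NF-kB consensus was found in 0 of the 13 windows and in 11.3% of all, and the ZEB-type E-box CACCTG, read on both strands, in 0 and in 20.6%. IL18 and CASP1 had no window, and sequence outside the windows was not searched.

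IL18, a cytokine that drives interferon-gamma release and is also cut by caspase-1, was higher with mir-429 at every time. At 24 h it read 9.29, 9.01 and 9.17 in control and 9.76, 9.79 and 9.74 with mir-429. At 48 h it read 8.20, 8.05 and 8.16 in control and 9.0, 9.08 and 9.35 with mir-429. At 144 h it read 8.63, 8.55 and 8.58 in control and 9.09, 9.23 and 9.09 with mir-429. The arms overlapped at none of the 3 times.

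At 48 h IL18 rose by 1.00 ± 0.10 (limma adjusted p = 1.4e-06). The differences at 24 and 144 h were 0.61 ± 0.10 and 0.55 ± 0.10. In untransfected cells IL18 was at 8.69, 8.66 and 8.46. Control cells were higher than these at 24 h by 0.55 ± 0.10 (limma adjusted p = 0.000453), lower at 48 h by -0.46 ± 0.10 (adjusted p = 0.000957), and at -0.01 ± 0.10 at 144 h (adjusted p = 0.967). The fall at 48 h was not called with that 3' to 5' term, at -0.66 ± 0.41 (limma adjusted p = 0.428). The lowest group was control at 48 h (8.14), followed by control at 144 h (8.59) and untransfected cells (8.60), which overlapped. Then came mir-429 at 144 h, mir-429 at 48 h and control at 24 h, at 9.13, 9.14 and 9.16, whose arrays overlapped, and mir-429 at 24 h at 9.76. IL18 had 1 probe set.

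CASP1, the protease that cuts the IL-1 beta and IL-18 precursors, was lower with mir-429 at every time. Control arrays read 8.34, 8.09 and 8.41 at 24 h, 8.73, 8.80 and 8.94 at 48 h, and 7.65, 7.96 and 7.72 at 144 h. The mir-429 arrays read 7.79, 7.82 and 7.70, then 7.70, 7.95 and 7.96, then 7.21, 6.99 and 7.19. The arms overlapped at none of the times in this probe set.

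At 48 h CASP1 fell by 0.95 ± 0.11 with mir-429, a 1.936-fold difference (limma adjusted p = 7.76e-06). The differences at 24 and 144 h were -0.51 ± 0.11 and -0.65 ± 0.11. In control cells CASP1 rose against untransfected cells (7.70, 7.57 and 7.74) by 0.61 ± 0.11 at 24 h (limma adjusted p = 0.000446) and by 1.15 ± 0.11 at 48 h (adjusted p = 2.6e-07), and was at 0.11 ± 0.11 at 144 h (adjusted p = 0.714). With that 3' to 5' term the 48 h value was 1.06 ± 0.46 and no longer called (limma adjusted p = 0.24). The mir-429 cells of 24 and 48 h, at 7.77 and 7.87, overlapped untransfected cells at 7.67, and the mir-429 cells of 144 h were lowest of all at 7.13.

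The summed linear level of 7 fibroblast markers, most of it from COL1A1, was also lower with mir-429 at each time. It was 425.3 to 454.5 in control and 294.9 to 331.6 in mir-429 cells at 24 h, 319.5 to 378.3 and 181.5 to 269.1 at 48 h, and 427 to 474.1 and 328.3 to 365.3 at 144 h. In untransfected cells, where CASP1 was below the control cells of 24 h, the sum was 478.7 to 669. COL1A1 lay above the array median on 21 arrays, PDGFRB on 20 and DCN on 1, and COL1A2, COL3A1, LUM and PDGFRA on 0. The means of COL1A1 and PDGFRB were lower with mir-429 at each time. COL1A1 was at 8.01 beside 8.57 in control at 24 h, 7.34 beside 8.14 at 48 h and 8.20 beside 8.62 at 144 h. LUM was higher with mir-429 at each time, and COL1A2, COL3A1, DCN and PDGFRA differed in direction between times. Their part in the CASP1 values was not tested.

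CASP1 has 5 probe sets of its own. At 48 h their differences with mir-429 ran from -1.61 ± 0.49 (206011_at) to -0.53 ± 0.19 (211367_s_at), all on the lower side. At 144 h they ran from -0.91 ± 0.14 to -0.59 ± 0.49. At 24 h the set 211367_s_at was at 0.35 ± 0.19, against -0.32 to -0.51 in the other four. Names ending in _s_at or _x_at mark sets whose probes can match more than one transcript. A further set that the annotation gives to both CASP1 and its close relative CARD16 was not counted here and was at -0.37 ± 0.17 at 48 h (limma adjusted p = 0.205 over all probe sets).

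**Figure D2:**
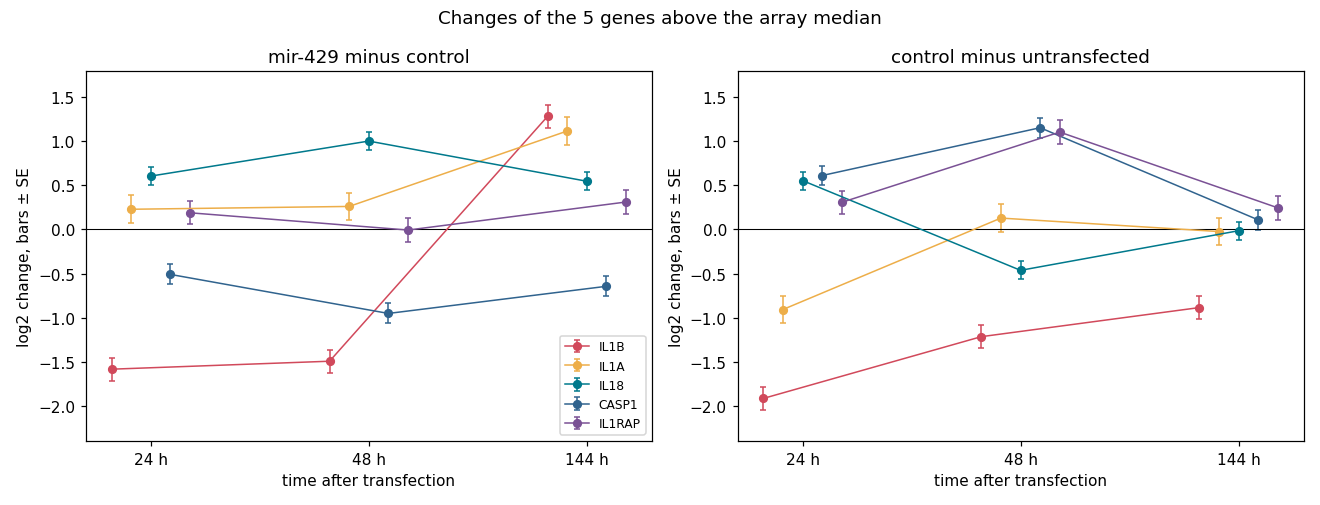
Log2 change (vertical axis, bars ± SE from the limma fit, n = 3 arrays per group) of the 5 tested genes at 24, 48 and 144 h (horizontal axis, evenly spaced and not to scale), as mir-429 minus control on the left and control minus untransfected on the right. IL1B goes from -1.50 at 48 h to 1.28 at 144 h on the left, while IL18 stays above 0 and CASP1 below 0 at all 3 times.

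IL1RAP, the accessory chain shared by the IL-1 and IL-33 receptors, gave different answers from its 2 probe sets. The brighter set, 210233_at, was at 6.82 to 7.10 in control and 7.14 to 7.16 in mir-429 cells at 24 h, and at 7.52 to 8.07 and 7.46 to 7.98 at 48 h. Its differences with mir-429 were 0.19 ± 0.13 at 24 h and 0.31 ± 0.13 at 144 h, and at 48 h it was at -0.01 ± 0.13 (limma adjusted p = 0.978). The other set, 205227_at, read 4.94, 5.18 and 4.71 in control and 6.65, 6.01 and 6.13 in mir-429 cells at 24 h. At 48 h it read 6.81, 7.46 and 6.92 in control and 8.13, 7.73 and 7.70 with mir-429, again without overlap.

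In a fit over all 54675 probe sets, 205227_at was higher with mir-429 at 48 h by 0.79 ± 0.21 (limma adjusted p = 0.0249). Its differences were 1.32 ± 0.21 at 24 h and -0.24 ± 0.21 at 144 h. Against untransfected cells both sets rose in control cells at 48 h, by 1.11 ± 0.13 in 210233_at (limma adjusted p = 2.39e-06) and by 1.57 ± 0.21 in 205227_at (adjusted p = 1.4e-05 over all probe sets). With that 3' to 5' term the first was at 1.57 ± 0.53 and not called (limma adjusted p = 0.142). At 24 h the sets went apart in control cells, at 0.31 ± 0.13 (limma adjusted p = 0.0762) and -0.54 ± 0.21 (adjusted p = 0.0981 over all probe sets). At 144 h 210233_at was at 0.25 ± 0.13 (adjusted p = 0.41). Over the 21 arrays the sets correlated at r = 0.806. In rising order the group means of 210233_at were 6.65 (untransfected), 6.90 (control, 144 h), 6.96 (control, 24 h), 7.15 (mir-429, 24 h), 7.21 (mir-429, 144 h), 7.75 (mir-429, 48 h) and 7.76 (control, 48 h). The arrays of both control groups at 24 and 144 h overlapped, as did those of mir-429 at 24 and 144 h and those of both arms at 48 h.

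**Figure D3:**
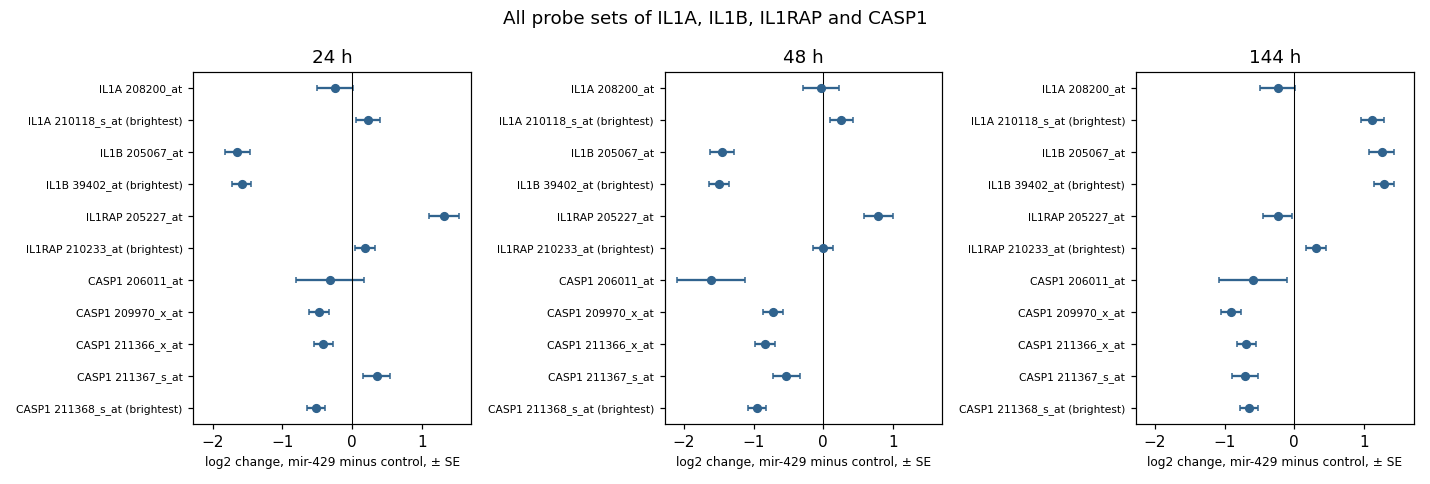
Log2 change with mir-429 against control (horizontal axis, bars ± SE from a limma fit over all probe sets, n = 3 arrays per group) of every probe set of IL1A, IL1B, IL1RAP and CASP1 at 24, 48 and 144 h. Both IL1B sets lie together at each time, while 205227_at of IL1RAP lies at 1.32 at 24 h beside 0.19 for the brighter set.

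The signalling receptor chain IL1R1, the antagonist IL1RN and the cytokine IL33 were dim. IL1R1 lay between 3.07 and 3.93 in its brighter set and between 2.37 and 3.93 in the other, below the array median on all 21 arrays. IL1RN had 5 probe sets, and the brightest ran from 2.82 to 4.35. Its only array above the median was control at 48 h, replicate 1, and all neighbours in its order of groups overlapped. IL33 read 3.11, 2.45 and 2.82 on the mir-429 arrays of 48 h and 1.51 to 2.30 on all other arrays.

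Over all probe sets, IL33 was higher with mir-429 at 48 h by 0.70 ± 0.20 (limma adjusted p = 0.0369) and the IL1RN set 216245_at lower by -0.91 ± 0.23 (adjusted p = 0.0182). Both lay below the array median on every array. The IL1R1 sets were at -0.37 ± 0.25 and -0.06 ± 0.19. In that fit 9 of the 20 probe sets of the members were called at 48 h, 3 higher and 6 lower, beside 7.74% of all probe sets. Sets of a gene measure the same mRNA and are not separate evidence.

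Counted by gene, 3 of the 5 tested members were called at 48 h with mir-429, 1 higher (IL18) and 2 lower (IL1B and CASP1). Of all 12879 genes tested 20.6% were called, 9.32% higher and 11.3% lower. No count is made at 24 and 144 h, whose contrasts the choice of members used. The median change of the 5 at 48 h was -0.01, as was that of all genes.

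In control cells against untransfected cells, 4 of the 5 members were called at 24 h, 2 higher and 2 lower, beside 38.0% of all genes (18.3% higher, 19.8% lower). At 48 h there were again 4, 2 in each direction, beside 54.5% (18.4% higher, 36.1% lower). With the 3' to 5' term none of these 4 limma calls was kept (adjusted p from 0.142 to 0.566), and 0.59% of all genes were called. That term can hardly be separated from the 48 h group, so these lost calls decide nothing. At 144 h IL1B alone was called, as lower, beside 0.474% of all genes (0.280% higher, 0.194% lower). That call is not independent of the choice of members, since low control values at 144 h favour the known IL1B rise. The medians of the members were 0.31, 0.13 and -0.01, and those of all genes 0.04, -0.16 and 0.02. These comparisons share the untransfected arrays, and those with mir-429 share the control arrays.

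Among the other genes of the system, those that carry the signal of the receptor were mostly measured. Of 23 signalling genes 20 were tested, and at 48 h with mir-429 6 were lower and 1 higher (median -0.10), beside 20.6% of all genes called. The kinase gene IRAK2 fell by 0.89 ± 0.15 (limma adjusted p = 0.000441), the NF-kB inhibitor gene NFKBIA by 0.86 ± 0.14 (adjusted p = 0.000162) and the adaptor gene MYD88 by 0.47 ± 0.14 (adjusted p = 0.0218). At 24 and 144 h the list's median difference was -0.14 and -0.04, beside -0.02 and -0.04 over all genes. In control against untransfected cells 8 were higher and 5 lower at 24 h (38.0% of all genes called), 6 higher and 8 lower at 48 h (54.5%) and 1 higher at 144 h (0.474%). With the 3' to 5' term these counts were 7 and 2, 0 and 0, and 0 and 0, where 16.4%, 0.59% and 0.14% of all genes were called. The gene higher at 144 h was NFKBIA, at 0.77 ± 0.14 (limma adjusted p = 0.0109, and 0.0941 with that term).

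Inflammasome and processing genes numbered 23, of which 17 were tested. At 48 h 4 were lower and 1 higher with mir-429 (median 0.09), 5 of 17 beside 20.6% of all genes. CASP4, an inflammatory caspase related to CASP1, fell by 0.49 ± 0.09 (limma adjusted p = 0.00109). The sensor gene NLRP3 was at 0.29 ± 0.11 (adjusted p = 0.076) and the pore-forming GSDMD at 0.19 ± 0.26 (adjusted p = 0.665). At 24 h NLRP3 was at -0.71 ± 0.11, and the list's median was -0.06 at 24 h and 0.04 at 144 h. PYCARD, the adaptor that joins sensors to caspase-1, lay below the median on every array. In control cells 3 were higher and 4 lower at 24 h, beside 38.0% of all genes, and 2 higher and 7 lower at 48 h, beside 54.5%. At 144 h limma called 0 of them, with 1 at an unadjusted p under 0.05, beside 0.474% of all genes. With the 3' to 5' term 2 were higher and 1 lower at 24 h, beside 16.4% of all genes, and 0 were called at 48 h, beside 0.59%. NLRP3 was among the higher ones at 24 h, at 0.74 ± 0.11 (limma adjusted p = 8.2e-05).

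Of 30 genes known to respond to IL-1, 20 were tested. At 48 h 8 were lower and 2 higher with mir-429, with a median of -0.34, beside 20.6% of all genes called and a median of -0.01. The list was drawn up with the changes of its chemokines known, so its direction is not independent evidence. CXCL8 and CXCL1, which encode neutrophil chemokines, were at -3.13 ± 0.15 and -2.37 ± 0.12. IL6 fell by 1.58 ± 0.17 (limma adjusted p = 3.42e-06), from 7.96 to 8.53 on the control arrays to 6.64 to 6.82 on the mir-429 arrays. CSF3, the granulocyte growth factor, was at -0.23 ± 0.12 (adjusted p = 0.182), and TNFAIP3, which shuts off NF-kB signalling, at -0.35 ± 0.16 (adjusted p = 0.137).

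The response genes went different ways at 144 h with mir-429. The matrix protease genes MMP1 and MMP10 had the largest differences of the list there, at 2.08 ± 0.17 and 1.57 ± 0.22, and were named after their values were seen. MMP1 was at -1.30 ± 0.17 at 24 h and fell by 2.16 ± 0.17 at 48 h (limma adjusted p = 7.35e-08), while MMP10 was at -0.21 ± 0.22 and 0.10 ± 0.22 (adjusted p = 0.818 at 48 h). At 144 h CXCL8 was at 0.28 ± 0.15, CXCL1 at -0.35 ± 0.12 and IL6 at -0.30 ± 0.17. The list's median was -0.20 at 24 h and -0.09 at 144 h. In control cells 8 were higher and 3 lower at 24 h (38.0% of all genes called), 9 higher and 3 lower at 48 h (54.5%), and 1 lower at 144 h (0.474%). With the 3' to 5' term these were 7 and 1, 1 and 0, and 0 and 0, where 16.4%, 0.59% and 0.14% of all genes were called. The gene lower at 144 h was CXCL8, at -0.79 ± 0.15 (limma adjusted p = 0.0215, and 0.261 with that term). At 48 h in control cells IL6 rose by 1.58 ± 0.17 (limma adjusted p = 9.35e-07), and with that term it was at 2.26 ± 0.69 and not called (adjusted p = 0.112).

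Of the 6 further ligands of the family, 1 was tested (IL37), and of the 9 further receptors and decoys 3 were. With mir-429 at 48 h limma called 0 of these 4, too few to set against the 20.6% of all genes called, with 1 at an unadjusted p under 0.05. It was IL1RAPL1, named after its value was seen, at 0.86 ± 0.31 (limma adjusted p = 0.0582), and at 1.16 ± 0.34 and called with the 3' to 5' term (adjusted p = 0.0278). In limma at 48 h IL18BP, which encodes a secreted protein that neutralises IL-18, was at 0.11 ± 0.12 (adjusted p = 0.615). In control cells IL18BP fell by 0.46 ± 0.12 at 48 h (limma adjusted p = 0.00484), which the 3' to 5' term turned to 0.11 ± 0.49 (adjusted p = 0.934). The decoy receptor gene IL1R2 lay below the median on all arrays.

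**Figure D4:**
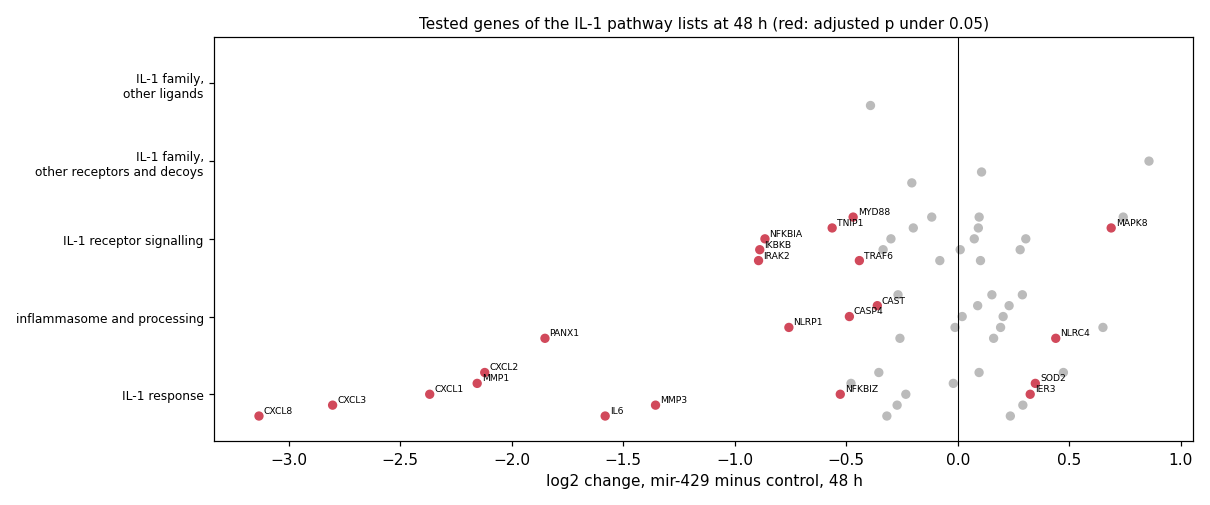
Log2 change with mir-429 against control at 48 h (horizontal axis) of each tested gene of the 5 pathway lists (rows, with points spread vertically for legibility); red points have a limma adjusted p under 0.05. The IL-1 response row reaches from CXCL8 at -3.13 to genes near 0.5, and the rows of further family members, with 1 and 3 tested genes, hold no red point.

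Likeness to IL1B was ranked among 5110 tested genes whose group means span at least 1 log2 unit. Members and genes with LOC, open reading frame, FLJ, KIAA or DKFZ names were left out of the ranking. Most like IL1B over the 21 arrays were HSD11B1 (r = 0.972), FAM8A1 (r = 0.95), PAQR8 (r = 0.941), CCNG2 (r = 0.936), CNIH4 (r = 0.924) and ESM1 (r = 0.922). HSD11B1 encodes the enzyme that regenerates active cortisol, CCNG2 a cyclin linked to cell cycle arrest and ESM1 a secreted proteoglycan. HSD11B1 was at 9.13 in untransfected cells, at 7.93 in control and 7.39 in mir-429 cells at 24 h, and at 8.55 and 9.33 at 144 h. Without the 48 h arrays the 6 correlations were between 0.942 and 0.977. Most opposed were TNFSF9 (r = -0.922), which encodes a costimulatory ligand, the miRNA-processing gene DICER1 (r = -0.921) and STX3 (r = -0.918). The arrays share 7 groups, so these values describe a common course and carry no test.

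**Figure D5:**
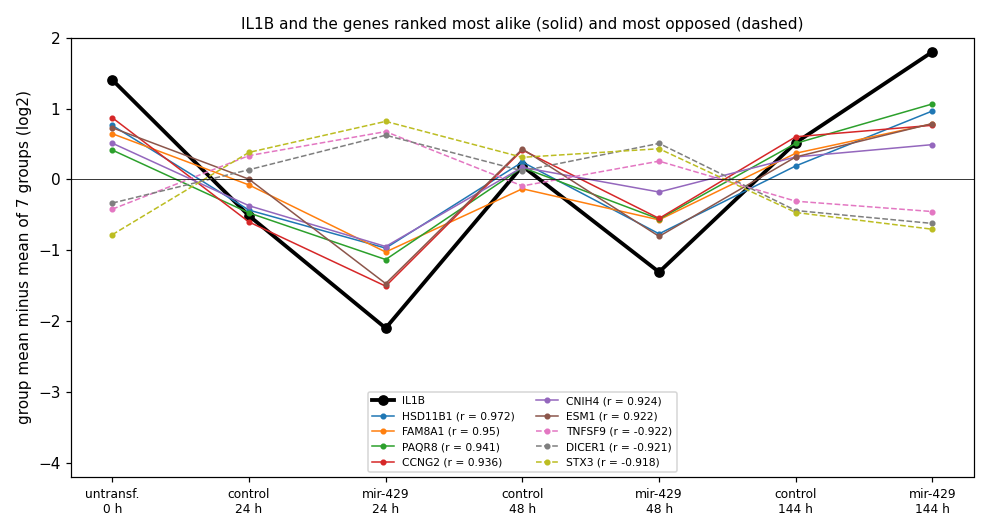
Group means minus the mean of the 7 groups (vertical axis, log2) by group (horizontal axis) for IL1B (black), the 6 genes most like it (solid) and the 3 most opposed (dashed). IL1B has the widest course of the genes plotted, from 5.84 to 9.74 as group means.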

How the data were processed

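Gene expression of HEY cells was measured on 21 arrays, 3 in each of 7 groups given by the sample titles. The authors made the values with RMA, per the submitters' processing notes, and deposited them on the log2 scale, 1 per probe set. The RMA software is not given in the sources used here. These values were used without further scaling. The platform annotation gave 1 symbol to 41097 of 54675 probe sets, several to 1801 and none to 11777. RefSeq (GRCh38.p14) supplied current symbols by Entrez identifier, with 99.9% matched. A gene was represented by its probe set with the highest mean. Genes above the array median on at least 3 arrays were tested.

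The tests came from limma 3.58.1 under R 4.3.3 (functions lmFit and eBayes with a mean per group, 14 residual and 3.93 prior degrees of freedom). They were two-sided, with Benjamini-Hochberg adjustment over all features of the fit and a threshold of 0.05. The script was tested on simulated data. The number of arrays limits the precision.

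The members, gene lists, named genes and alternatives were chosen with earlier results of these data known. Named were all members, 14 pathway genes, and the 6 genes most like and 3 most opposed to IL1B. The 14 were reported whatever their values, but they include chemokine genes whose changes were already known. MMP1, MMP10 and IL1RAPL1, and genes named because they were the only ones of a list called, were chosen after their values were seen. Alternatives were cyclic loess and quantile scaling, no filter, the mean of a gene's probe sets, only the arrays compared, the 3' to 5' covariate, a replicate block, no 48 h arrays and leaving out each array. The fit over all probe sets and the pathway counts with the 3' to 5' covariate were added after seeing the data. miRNA and start region sequences are from RefSeq tables, which had a start region for 6 of the 8 members and not for IL18 and CASP1.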

Additional observations from a re-analysis of the deposited data

Results flagged for a closer look

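IL1B was flagged because all mir-429 arrays lay below all control arrays at 24 and 48 h and above them at 144 h. Its changes of -1.59 at 24 h and 1.28 at 144 h differ by 2.87, and those of -1.50 at 48 h and 1.28 at 144 h by 2.78. These differences were not tested, because the choice of members used them. IL18 was flagged in control cells, where every array lay above all untransfected arrays at 24 h and below them at 48 h. Its changes of 0.55 and -0.46 differ by -1.02, which was not tested either, and the 48 h arrays had the weak 5' signal given above.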

How the results depend on the processing

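The 20 tested results of the members stayed on the same side of the threshold in 264 of 270 alternative fits. Results called with the main settings kept their sign in all, and uncalled ones had the other sign in 14. Of the 6 fits that changed a call, 4 were the calls of IL1B, IL18, CASP1 and IL1RAP in control cells at 48 h under the 3' to 5' covariate, given above. In the other two, IL1RAP in control cells at 24 h passed the threshold after quantile scaling and without the 48 h arrays (0.35 ± 0.14 and 0.31 ± 0.08, limma adjusted p = 0.0491 and 0.00909). The mir-429 changes of IL1B, IL18 and CASP1 at 48 h were called in all 13 alternatives each. With the mean of all probe sets, the untested differences moved from 0.19 to 0.75 for IL1RAP at 24 h and from 1.12 to 0.44 for IL1A at 144 h, a mean that includes the dim sets. The difference of the IL1B effect between 24 and 144 h was 2.77 to 2.94 over single arrays left out.

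Counts over all genes moved more. With the covariate they were 614 at 24 h with mir-429 (3425 otherwise). The control arm then gave 2118 (4897), 76 (7022) and 18 (61) genes at 24, 48 and 144 h. With only the arrays compared they were 916 at 48 h with mir-429 (2649) and 664 in the control arm at 144 h. That last count was 39 without a filter and 35 with the mean of probe sets. Without the 48 h arrays it was 1160 at 144 h with mir-429 (754).

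Leaving out single arrays gave 2148 to 4033 at 24 h, 2106 to 2611 at 48 h and 326 to 659 at 144 h with mir-429, and 3483 to 5257, 6075 to 6873 and 25 to 62 in control cells. At 24 h with mir-429 the count was 2148 without control replicate 3 and 2249 without mir-429 replicate 1. At 144 h it was 496, 326 and 404 without control replicates 1, 2 and 3, and 410 and 400 without mir-429 replicates 1 and 2. In control cells at 144 h it was 32, 28 and 25 without control replicates 1, 2 and 3, and 25 without untransfected replicate 2 or 3. IL1B stayed called there in all 14 alternatives (limma adjusted p between 0.00146 and 0.0444). All of them rest on control arrays of 144 h, which the choice used.

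The replicate numbers gave no common deviation (correlations from -0.371 to 0.279), so they do not pair the arrays. With the replicate block the counts were 3367, 2572 and 717 with mir-429 and 4859, 6966 and 60 in control cells, and no call of a member changed. After cyclic loess 321 of 729 genes were higher at 144 h with mir-429 (191 of 754 otherwise) and 257 of 694 after quantile scaling. Cyclic loess shifted the median of all genes in control cells at 48 h by 0.10, and the directions of the called members held under both scalings.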
